A study of Mus musculus with 24 samples.

Results

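Lung RNA of mice lacking interleukin 13 (IL-13 KO) was compared with lung RNA of wild-type mice after PBS, which usually stands for phosphate-buffered saline and is the allergen-free arm of the study. The 6 samples compared, 3 IL-13 KO and 3 wild type, were chosen by the genotype and treatment in their titles from 12 samples in all. The other 6 samples, 3 of each genotype, carried the label HDM, which usually stands for house dust mite, and served here to estimate the spread and as separate samples of the same genotypes. Each sample was hybridised to a pair of expression arrays, set A and set B, and the comparison rests on 12 of 24 arrays. The labels describe the tissue as lung and the KO group as a mouse strain. The allele, the background strain, the age and sex of the animals, the dose and route of PBS, and whether samples came from separate or pooled animals are details that the sources used here do not give. The p-values therefore measure the spread between these samples, which may be technical. A difference between IL-13 KO and wild type and a difference between the background strains of these mice cannot be told apart in this design.

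IL-13 is a cytokine made mainly by type 2 helper T cells and type 2 innate lymphoid cells. It binds a receptor of the Il4ra and Il13ra1 chains, which activates the transcription factor STAT6, while Il13ra2 is a decoy receptor. In the airway it is known for driving goblet cell mucus, epithelial chitinases, smooth muscle responses and alternatively activated macrophages during allergic inflammation, so the PBS arm asks what its loss changes in a lung without that stimulus.

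The samples held lung RNA by their markers: 20 tested alveolar type 2 cell genes had a summed signal of 49475 to 57310 over the 6 PBS samples, and 16 club cell genes 36229 to 44222. Within a group, PBS samples had Spearman correlations of 0.946 to 0.971 (set A) and 0.830 to 0.890 (set B). Those between samples of different genotype were 0.937 to 0.962 and 0.840 to 0.900, so the genotypes did not separate by overall similarity. Across the 100 probe sets carried by both, the set A arrays of IL-13 KO PBS replicates 2 and 3 correlated at 0.230 and 0.257 with their own set B arrays and better with a set B array of a wild-type PBS sample. Among the HDM samples, set A of wild-type replicate 3 (0.361 with its own set B) correlated best with set B of KO replicate 2. Set A of KO replicate 3 (0.397 with its own set B) correlated best with set B of KO replicate 1. The joining of the arrays of these samples therefore rests on the titles. Wild-type PBS replicate 2 stood apart by its skeletal muscle transcripts, with a summed signal of 4750 over 13 tested genes against 859 to 1276 in the other 5 PBS samples. Its actin signal had the lowest 5' to 3' ratio, which falls as RNA degrades, at 0.409 on set A and 0.349 on set B. Between the groups this ratio did not differ beyond the spread (exact permutation test, two-sided, p = 0.6 on set A and 0.9 on set B, where 3 samples against 3 cannot go below 0.1).

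The targeted gene was near the floor of the array in both genotypes. Il13 had signals of 4.65, 12.1 and 5.05 in the wild-type PBS samples and 3.30, 9.45 and 8.66 in the KO PBS samples, and these ranges overlapped. This probe set did not pass the filter on low signal and the sources used here do not place it relative to the deletion, so it cannot serve as a check of genotype. Il5, the eosinophil growth factor encoded beside Il13, and the decoy receptor Il13ra2 were also under the filter. The other members of the pathway were measured. Il4, which encodes the cytokine most related to IL-13, had 35.1, 31.9 and 49.6 in wild type against 19.98, 39.1 and 26.3 in KO, and the groups overlapped (log2 difference -0.39 ± 0.25, SE; limma adjusted p = 0.81). Il4ra, the receptor chain shared with IL-4, had 184, 251 and 259 against 304, 298 and 284, so that every KO sample was above every wild-type sample, without passing the test (0.36 ± 0.14, adjusted p = 0.673 in limma). One of 5 tested probe sets of Il13ra1, the other chain of that receptor, had lower values in every KO sample, at 21.4 to 27.4 against 38.4 to 50.4 (-0.80 ± 0.30, limma adjusted p = 0.64). The remaining 4 differed by -0.40 to -0.05. Stat6 differed by 0.12 and 0.13 on its probe sets. None of these genes was called.

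Few probe sets were called between the genotypes after PBS. Of 31496 probe sets tested, 12 were called (limma, Benjamini-Hochberg adjusted p under 0.05), a share of 0.0381%. These 12 divided into 6 higher and 6 lower in KO, with 5 on set A and 7 on set B. In 11 of them the annotation gave a single gene, which made 10 different genes. The groups did not overlap in any of the 12, against 11.2% of all tested probe sets. That follows largely from calling them on the same values and adds no support. In 9 of the 12 the mean levels differed at least 2-fold on the log2 scale used here. That scale is log2(signal + 7) on set A and log2(signal + 11) on set B and understates the change of probe sets with low signal. A further view is the unadjusted p, which was under 0.05 for 2143 probe sets (6.8%), and over all tested probe sets the median difference was -0.01. The count of 12 was 2 when the 6 PBS samples were fitted alone. It was 6 without KO PBS replicate 3 and 20 without wild-type PBS replicate 1, and 10 without wild-type PBS replicate 2, the sample with muscle transcripts. Counted by genes, taking for each gene the probe set with the highest mean, 3 of 14477 were called (0.0207%): Xaf1, Col23a1 and Rin3. The other called genes are described because the list was short, after their values had been seen.

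**Figure D1:**
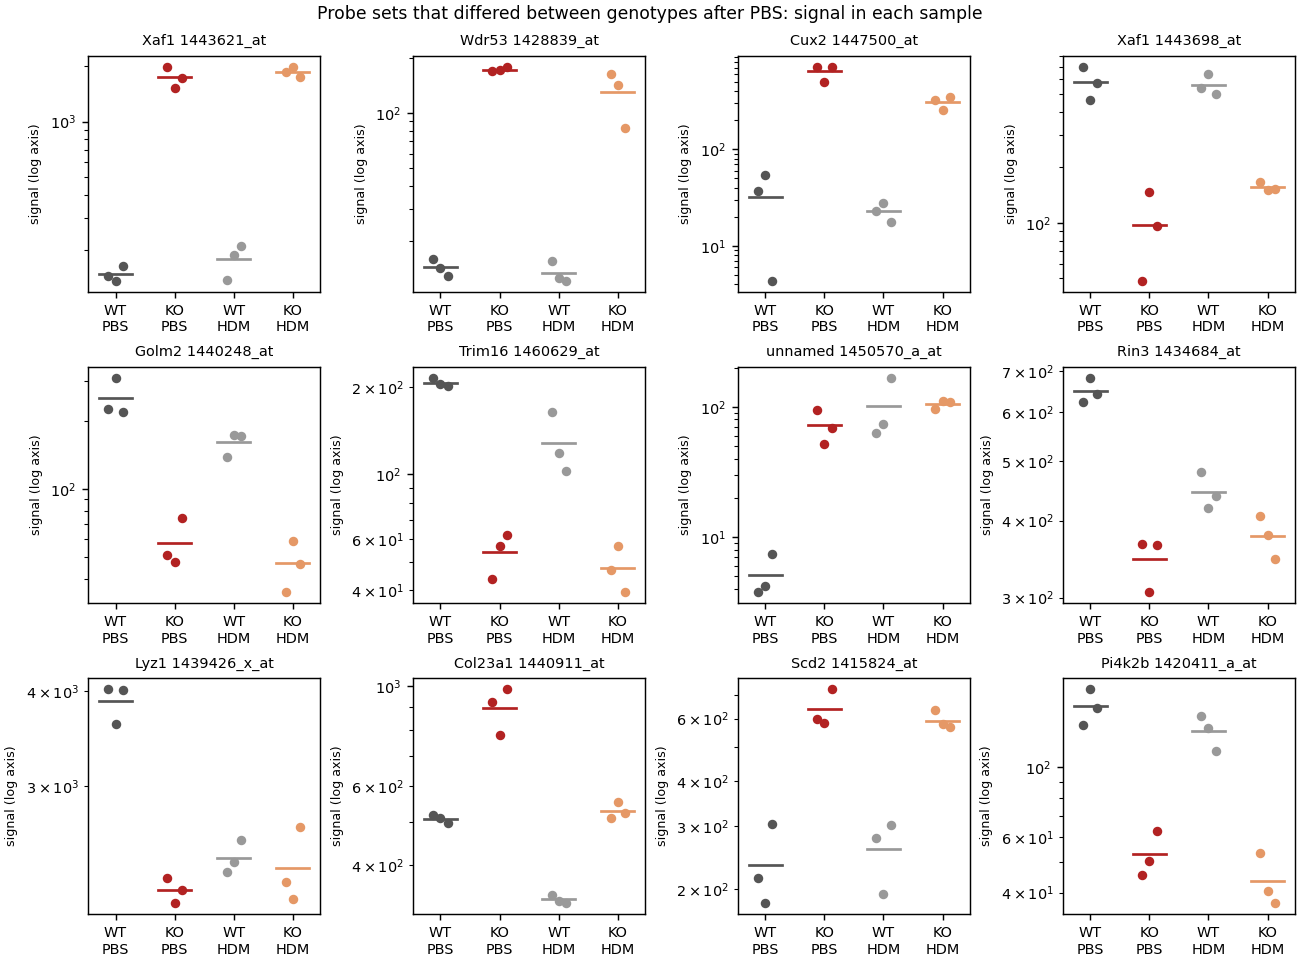
Signal of the 12 called probe sets in each sample, with a log axis in every panel; each point is a sample and each bar the mean of 3 samples, for wild type (WT) and IL-13 KO after PBS and after HDM. The genotypes are apart after PBS in all 12 panels, and after HDM the samples of both genotypes mix for Lyz1 and for the unnamed probe set 1450570_a_at.

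Xaf1, an interferon-inducible gene whose product opposes the apoptosis inhibitor XIAP, had the smallest p-value and was called in opposite directions by its probe sets. On probe set 1443621_at wild-type PBS samples had signals of 144, 136 and 163 and KO PBS samples 1987, 1526 and 1731. The KO mean of 1748 ± 231 was 11.8 times the wild-type mean of 148 ± 13.9 (mean ± SD, n = 3), a log2 difference of 3.47 ± 0.15 (SE; limma adjusted p = 5.79e-07). On probe set 1443698_at the wild-type samples had 703, 465 and 575 and the KO samples 48.4, 147 and 96.1, a log2 difference of -2.54 ± 0.28 (limma adjusted p = 0.0061). Neither pair of groups overlapped. Of 6363 genes with several tested probe sets, Xaf1 was the only gene with more than 1 called. A level for the gene as a whole thus cannot be read from these arrays.

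Other genes of the interferon response had no common direction. Of 30 tested genes on that list, 15 were higher and 15 lower in KO, with a median of 0.00, and Xaf1 was the only one called. Rsad2, the antiviral enzyme viperin, had the next smallest p, with signals of 242, 353 and 256 in wild type and 553, 385 and 495 in KO (0.74 ± 0.22, limma adjusted p = 0.523). The sequences before the transcript starts of these 2 genes are shown because the interferon response acts through a short element there. The letters GAAA, any 2 bases and GAAA, searched on both strands, are the core of the interferon-stimulated response element, and capitals mark them. The Xaf1 sequence lies at chr11:72301379-72301628 on the plus strand and the Rsad2 sequence at chr12:26456453-26456702 on the minus strand (RefSeq, GRCm38.p6), each 250 bases ending at the start.
Xaf1: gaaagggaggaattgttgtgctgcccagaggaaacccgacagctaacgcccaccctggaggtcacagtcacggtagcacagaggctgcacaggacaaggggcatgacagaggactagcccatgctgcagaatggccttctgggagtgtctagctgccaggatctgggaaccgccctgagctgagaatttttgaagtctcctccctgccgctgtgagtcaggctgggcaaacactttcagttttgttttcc
Rsad2: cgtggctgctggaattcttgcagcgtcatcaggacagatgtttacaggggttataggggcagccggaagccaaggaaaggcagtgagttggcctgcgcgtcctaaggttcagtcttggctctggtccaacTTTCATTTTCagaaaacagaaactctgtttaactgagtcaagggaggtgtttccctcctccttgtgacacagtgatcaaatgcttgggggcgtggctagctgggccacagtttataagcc
The Rsad2 sequence held the letters 120 bases before the start, and the Xaf1 sequence did not hold them. They occurred in 53.8% of 39 promoters of 33 interferon response genes and in 3.44% of all 32851 promoters, read over 250 bases before to 50 after each start. The letters TTC, any 4 bases and GAA, a palindrome that STAT6 is known to bind, occurred in 6.95% of all promoters. Of 11 promoters found for 8 of the called genes, 0 held either set of letters, and of 13 promoters of genes known to be induced by IL-13, 0 held the STAT6 letters. A missing match says only that these letters are not in this window.

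The called probe sets of Cux2 and Wdr53 had low signal in wild-type lung and were higher in KO, while other tested probe sets of both genes were not called and differed in the opposite direction. Their wild-type means were 31.9 and 14.3 after PBS and 22.8 and 13.4 after HDM, below the filter level of set B (39.2). They thus entered the test through their KO signal, and with a filter at the 50th percentile Wdr53 was not tested. Cux2, a homeobox transcription factor known mainly from cortical neurons, had signals of 36.7, 54.6 and 4.34 in wild type and 712, 499 and 711 in KO. This was the largest log2 difference among the called probe sets, at 4.15 ± 0.41 (SE, n = 3 against 3; limma adjusted p = 0.0025). Wdr53, which encodes a WD-repeat protein, had 15.97, 14.2 and 12.8 in wild type and 169, 171 and 179 in KO, a log2 difference of 2.86 ± 0.23 (limma adjusted p = 3.32e-04). The KO samples of Wdr53 differed little among themselves, with an SD of 5.36 around a mean of 173. Another Cux2 probe set, on the other array set, was under the filter and had 19.2, 13.5 and 11.1 in wild type and 93.4, 100.3 and 95.2 in KO. There too every KO sample was above every wild-type sample. The tested Cux2 probe set 1447821_at had higher signal and went the other way, with 215, 992 and 760 in wild type and 131, 763 and 142 in KO, and its groups overlapped (-1.13 ± 0.65, limma adjusted p = 0.791). Wdr53 1428840_s_at had 206, 121 and 131 in wild type and 208, 85.8 and 137 in KO. A level for either gene as a whole thus cannot be read from 1 probe set.

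Golm2 and Trim16 went the other way. Golm2, which encodes a Golgi membrane protein, had signals of 227, 310 and 218 in wild type and 51.1, 47.3 and 74.6 in KO, so the wild-type mean was 4.36 times the KO mean (log2 difference -1.94 ± 0.22, limma adjusted p = 0.0067). Trim16, a tripartite-motif protein with ubiquitin ligase activity, had 215, 205 and 201 in wild type and 43.7, 56.9 and 61.9 in KO. Its wild-type mean of 207 ± 7.18 was 3.82 times the KO mean of 54.1 ± 9.41 (mean ± SD, n = 3; -1.82 ± 0.21, limma adjusted p = 0.0067).

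Scd2 and Col23a1 were higher in KO and Pi4k2b was lower. Scd2, a stearoyl-CoA desaturase that makes monounsaturated fatty acids, had signals of 215, 183 and 304 in wild type and 599, 583 and 726 in KO, 2.72 times as high on average (1.44 ± 0.19, limma adjusted p = 0.0202). Pi4k2b, a phosphatidylinositol kinase, had 136, 178 and 155 in wild type and 45.6, 50.6 and 62.7 in KO (-1.45 ± 0.20, limma adjusted p = 0.0202). Col23a1, a transmembrane collagen, had 517, 510 and 496 in wild type and 922, 781 and 988 in KO, 1.77 times as high on average (0.80 ± 0.10, limma adjusted p = 0.0157). In each of these the lowest sample of the higher group was above the highest sample of the lower group.

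Rin3, Lyz1 and an unnamed probe set completed the 12. Rin3, an exchange factor for Rab proteins of the endocytic pathway, had signals of 623, 682 and 642 in wild type and 366, 306 and 365 in KO (-0.89 ± 0.11, limma adjusted p = 0.0132). Lyz1, the lysozyme gene known from Paneth cells, had 4030, 3630 and 4013 in wild type and 2271, 2108 and 2194 in KO (-0.83 ± 0.11, limma adjusted p = 0.0132). Its neighbour Lyz2, the lysozyme of macrophages, differed by -0.11 and was not called (limma adjusted p = 0.923). Whether the Lyz1 probe sets also read Lyz2 was not tested. The alveolar macrophage genes had a median of 0.20 with 10 of 16 higher in KO. Lyz1 itself was on the list of alveolar type 2 genes, which had a median of 0.00 with 10 of 20 higher in KO. Which cells the Lyz1 difference came from was not tested. The unnamed probe set 1450570_a_at, to which the annotation used gave no single gene, had 3.8, 4.23 and 7.42 in wild type and 94.95, 52.0 and 69.2 in KO (2.68 ± 0.32, limma adjusted p = 0.0092). Its wild-type mean after PBS, 5.15, was below the filter level of set A (32.0), so it entered the test through its signal in the other groups. With a filter at the 50th percentile it was not tested.

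The calls differed in how far they rested on single samples. When each of the 12 samples was left out in turn, both Xaf1 probe sets, Wdr53, Cux2, Golm2 and Trim16 were called all 12 times, with limma adjusted p of at most 0.039. The other 6 were called 6 to 11 times. Pi4k2b was lost without any 1 of wild-type PBS replicates 2 and 3, KO PBS replicates 1, 2 and 3 and wild-type HDM replicate 2 (adjusted p up to 0.128). Scd2 was lost without any PBS sample other than wild-type replicate 3 (up to 0.121). Col23a1 was lost without wild-type PBS replicates 2 or 3 or KO PBS replicates 1 or 3 (up to 0.095), and Rin3 without wild-type replicates 2 or 3 or KO replicates 2 or 3 (up to 0.0732). Lyz1 was lost without wild-type PBS replicate 3 or KO PBS replicates 2 or 3 (up to 0.0685), and 1450570_a_at without KO PBS replicate 3 (0.0541). All 12 kept their direction. In the fit of the 6 PBS samples alone, only Xaf1 1443621_at (limma adjusted p = 1.47e-04) and Wdr53 (0.0051) were called, and Trim16, Cux2, Golm2 and 1450570_a_at had adjusted p of 0.0939 to 0.0997.

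The samples labelled HDM carry the same genotypes and were compared as separate samples. No array is shared between the comparison after PBS and that after HDM, although both use the same estimate of the spread. Of the 12 probe sets, 9 were also called after HDM, all in the direction seen after PBS, where 144 of 31496 (0.457%) were called in all. In the fit of the 6 HDM samples alone 7 of the 12 were called. The 9 were both Xaf1 probe sets, Wdr53, Cux2, Golm2, Trim16, Col23a1, Scd2 and Pi4k2b. After HDM alone, the groups were apart in the direction seen after PBS in 10 of the 12, against 8.98% of all tested probe sets. Over both treatments, all 6 KO samples lay apart from all 6 wild-type samples in 9 of the 12, 3 on set A and 6 on set B. Over all tested probe sets 157 did so (0.498%), but the PBS part of this separation followed from how the 12 were chosen. The probe sets so separated were those called after both treatments, with Rin3 in place of Col23a1. The KO samples of Col23a1 after HDM overlapped with wild type after PBS. The separation includes the arrays of KO PBS replicates 2 and 3 on both sets. The 12 were called on these arrays, so it is no check of how they were joined. The number called after HDM was 5 without wild-type HDM replicate 2, and likewise without KO HDM replicate 1 or KO HDM replicate 3.

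Levels after HDM were close to those after PBS for several of the 9. Xaf1 1443621_at had 138, 187 and 211 in wild type and 1852, 1973 and 1743 in KO, a log2 difference of 3.32 against 3.47 after PBS. Wdr53 had 15.6, 12.5 and 12.1 in wild type and 164, 143 and 82.8 in KO, and KO replicate 3 was the lowest of the KO samples of either treatment. Scd2 had 278, 194 and 302 in wild type and 633, 578 and 566 in KO. Pi4k2b differed by -1.45 after both treatments. In other genes the level itself was lower after HDM while the genotypes stayed apart. Cux2 had 320, 254 and 345 in KO after HDM against a mean of 641 ± 123 after PBS, and 17.9 to 27.8 in wild type. Col23a1 had 510, 554 and 524 in KO and 345, 333 and 330 in wild type, so the KO samples after HDM were at the level of wild type after PBS.

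**Figure D2:**
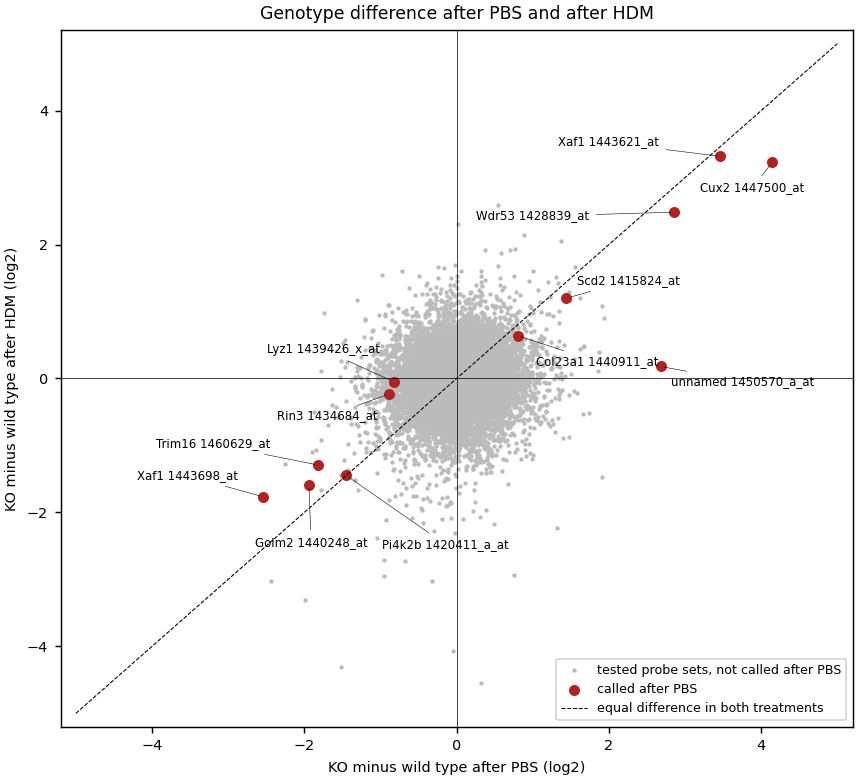
Log2 difference of IL-13 KO minus wild type after PBS (x axis) against the same after HDM (y axis) for each tested probe set; red points were called after PBS and the dashed line marks equal differences. The 9 probe sets called after both treatments have the same sign on both axes. Some lie off the line with smaller differences after HDM, such as Cux2 (4.15 and 3.23) and Xaf1 1443698_at (-2.54 and -1.77). The probe sets of Rin3 and Lyz1 and 1450570_a_at lie near 0 on the y axis.

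The remaining 3 had no called genotype difference after HDM. In Lyz1 the wild-type samples had 2318, 2386 and 2554 after HDM, below every wild-type PBS sample, and the KO samples 2244, 2136 and 2657, so the genotypes overlapped (-0.05 ± 0.11, limma adjusted p = 0.953). Rin3 had 480, 419 and 438 in wild type and 407, 379 and 346 in KO after HDM (-0.23 ± 0.11, limma adjusted p = 0.617). In 1450570_a_at the wild-type samples had 62.9, 74.0 and 167 after HDM, and the KO samples 96.3, 112 and 109 (0.18 ± 0.32, limma adjusted p = 0.942). The genotype difference after HDM minus that after PBS was 0.78 ± 0.15 for Lyz1, 0.66 ± 0.16 for Rin3 and -2.50 ± 0.46 for 1450570_a_at. The adjusted p-values of these differences in limma were 0.148, 0.425 and 0.112, so a dependence on the treatment was not shown. Of all 12, 0 passed that test and 3 had an unadjusted p under 0.05 (5.71% of all probe sets did), while 27 of all probe sets passed (0.0857%).

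Of the 76 other probe sets with an unadjusted p under 0.001 after PBS, which were not called there, 10 were called after HDM and 58 had the same sign. Over all tested probe sets, 54.7% had the same sign in both comparisons.

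Probe sets of 1 gene did not always go together. The called genes had 13 other probe sets, of which 12 were tested and 0 were called in limma, where 0.0381% of all tested probe sets were. The groups did not overlap in 5 of these 12, against 11.2% of all tested probe sets. In 9 of these 12 the direction was that of the called one. Lyz1 was lower in KO on both its other probe sets, with 5228, 4552 and 4969 in wild type against 3806, 3692 and 3280 in KO on 1436996_x_at (-0.45 ± 0.10) and -0.64 ± 0.19 on 1450822_at, without overlap of the groups on either. Pi4k2b 1449862_a_at had 254, 322 and 262 against 119, 140 and 144 (-1.01 ± 0.16, limma adjusted p = 0.0603), and was called after HDM (-0.93, adjusted p = 0.0217). Trim16 1452362_at differed by -0.60 ± 0.17 and Col23a1 1429210_at by 0.97 ± 0.35, both without overlap of the groups. By contrast, Golm2 1433779_at had 638, 539 and 391 in wild type against 552, 437 and 530 in KO (-0.02 ± 0.17). Wdr53 1428840_s_at differed by -0.13 ± 0.31 and Cux2 1447821_at, described above, by -1.13 ± 0.65, and the more intense Scd2 probe sets, with signals of 1396 to 1795 on 1415822_at, by 0.12 ± 0.14 and -0.29 ± 0.22. For Golm2, Wdr53 and Scd2 the called difference was thus seen on 1 probe set of the gene only.

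**Figure D3:**
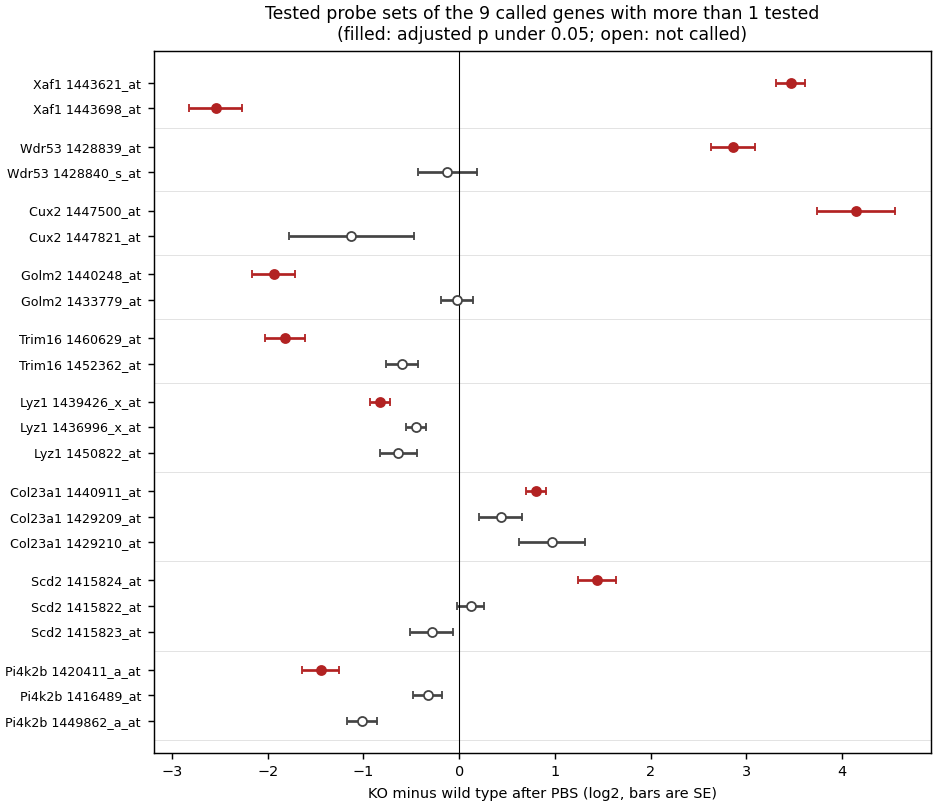
Log2 difference of IL-13 KO minus wild type after PBS for each tested probe set of the 9 called genes with more than 1 tested; bars are standard errors of the fit, filled points were called and open points were not. The probe sets of Xaf1 lie on opposite sides of 0, as do the filled and the open point of Cux2, those of Trim16, Lyz1, Col23a1 and Pi4k2b on one side, and the open points of Wdr53, Golm2 and Scd2 near 0.

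Just outside the threshold the values changed gradually. Slco4a1, an organic anion transporter, had signals of 35.3, 12.9 and 15.3 in wild type and 97.7, 68.3 and 113 in KO (1.73 ± 0.26, limma adjusted p = 0.0515). After HDM it had 181, 183 and 142 in wild type and 131, 113 and 102 in KO, so the genotypes were apart in the opposite direction (-0.51 ± 0.26, limma adjusted p = 0.649). The change of -2.25 between the treatments did not pass the test (limma adjusted p = 0.0561). The wild-type mean of Slco4a1 after PBS, 21.1, was below the filter level of set B (39.2), so it entered the test through the other groups. Unc45b, a muscle myosin chaperone, had 1065, 965 and 877 against 511, 381 and 456 (-1.10 ± 0.17, limma adjusted p = 0.0564) and was called after HDM (-0.96, adjusted p = 0.025). Sema3c, a secreted axon guidance factor, had 3431, 3862 and 3280 against 1795, 2318 and 2141 (-0.76 ± 0.13, limma adjusted p = 0.111), and was also called after HDM with a difference of -0.77. Between 0.05 and 0.1 there were 4 probe sets in all, and 38 had an adjusted p under 0.25.

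Il13 lies on chromosome 11, and 4 of the 12 called probe sets were of genes on that chromosome. They were both Xaf1 probe sets, Trim16 and Col23a1, of 2044 tested there, against 11 called of 25025 probe sets on all chromosomes. Counted by genes, 2 of 1195 were called there, against 3 of 14361 on all chromosomes. Counted in protein-coding genes in RefSeq order, Col23a1 lay 32 genes before Il13, Trim16 164 after it and Xaf1 334 after it. The other called genes were on chromosomes 2 (Golm2), 5 (Cux2 and Pi4k2b), 10 (Lyz1), 12 (Rin3), 16 (Wdr53) and 19 (Scd2). Of 1195 genes tested on chromosome 11, 2.51% had an unadjusted p under 0.01, against 1.94% of all genes with a place on a chromosome. The share was 7.35% of 68 genes in the block of 100 genes that starts 150 genes after Il13 and 6.49% of 77 genes in the next block, which hold Trim16 and Xaf1. In the block around Il13 itself, from 50 genes before to 49 after, it was 2.78% of 72 genes.

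Next to Il13, within 8 genes on either side, 10 genes were tested and differed by -0.39 to 0.30 (lowest adjusted p 0.808 in limma). None was called, where 0.0207% of all genes were, so this count does not set the neighbours apart. Rad50, the DNA repair gene beside Il13, differed by -0.21 and -0.04 on its probe sets, and the 4 probe sets of Kif3a, a kinesin subunit on the other side of Il4, by 0.03 to 0.56. Within 300 genes of Il13, Anxa6, an annexin 20 genes after it, had 83.8, 69.3 and 111 in wild type against 17.9, 32.1 and 40.5 in KO (-1.38 ± 0.26, limma adjusted p = 0.158). It was among the genes there with an unadjusted p under 0.001 and was chosen after its values were seen.

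**Figure D4:**
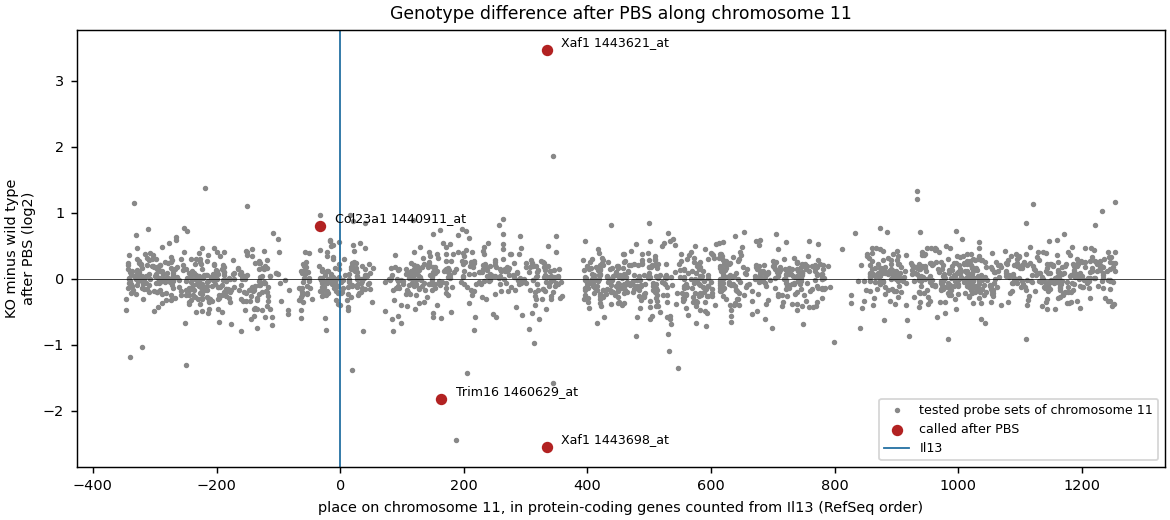
Log2 difference of IL-13 KO minus wild type after PBS for the tested probe sets of chromosome 11, placed by the number of protein-coding genes from Il13; red points were called. The called probe sets of Col23a1, Trim16 and Xaf1 stand out at -32, 164 and 334 genes. The probe sets within 8 genes of Il13 lie between -0.39 (Il4) and 0.56 (a Kif3a probe set), and none was called.

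Of 618 different genes tested on 39 lists of lung cells and pathways, 1 was called, Xaf1, so 38 lists had no member called. With 0.0207% of all genes called, a list without a call is not a result about its genes. The median difference lay between -0.2 and 0.2 in 32 lists, and the median over all genes was 0.00. At an unadjusted p under 0.05 there were 86 of the 618 list genes, against 7.48% of all genes. These lists share genes, and they were drawn up with results of these data known.

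Of 15 tested genes that IL-13 is known to induce in airway epithelium, 4 were higher and 11 lower in KO after PBS, with a median of -0.11. The median was -0.27 without wild-type PBS replicate 2, -0.02 without wild-type PBS replicate 3 and 0.01 without KO PBS replicate 3. Chia1, the acidic chitinase, had signals of 445, 564 and 616 in wild type and 269, 405 and 338 in KO, without overlap (-0.68 ± 0.18, limma adjusted p = 0.478). Postn, the matricellular protein periostin, had 982, 1186 and 970 against 792, 651 and 809 (-0.48 ± 0.13, limma adjusted p = 0.493). Of 15 goblet cell and mucus genes 4 were higher and 11 lower, with a median of -0.14. Muc5b, the main gel-forming mucin of the resting mouse airway, had 270, 237 and 242 against 179, 206 and 164 (-0.44 ± 0.12, limma adjusted p = 0.486). Tff2, a trefoil peptide, had 70.1, 54.6 and 74.8 against 35.7, 37.4 and 47.9 (-0.63 ± 0.21, limma adjusted p = 0.573). In Chia1, Postn, Muc5b and Tff2 every KO sample was below every wild-type sample, while 12.4% of all genes had no overlap in either direction. Pigr, an epithelial antibody transporter on the IL-13-induced list, went the other way. Every KO sample of Pigr was above every wild-type sample (0.68 ± 0.21, limma adjusted p = 0.55). After HDM the median of the IL-13-induced list was -1.58, and 8 of its 15 genes were called lower in KO (0.677% of all genes were called in that comparison).

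Macrophage and smooth muscle genes are also known to respond to IL-13. Of 22 alternatively activated macrophage genes 11 were higher and 11 lower in KO after PBS (median 0.00), and Folr2, a folate receptor, had 143, 95.2 and 134 in wild type against 107, 76.0 and 96.4 in KO. Smooth muscle genes were higher in 14 of 20, with a median of 0.09. The tropomyosin gene Tpm2 had 505, 670 and 415 against 952, 707 and 476, and its groups overlapped. Among alveolar macrophage genes, Itgax, the integrin CD11c, had 235, 231 and 250 against 327, 328 and 296 (0.40 ± 0.10, limma adjusted p = 0.456).

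**Figure D5:**
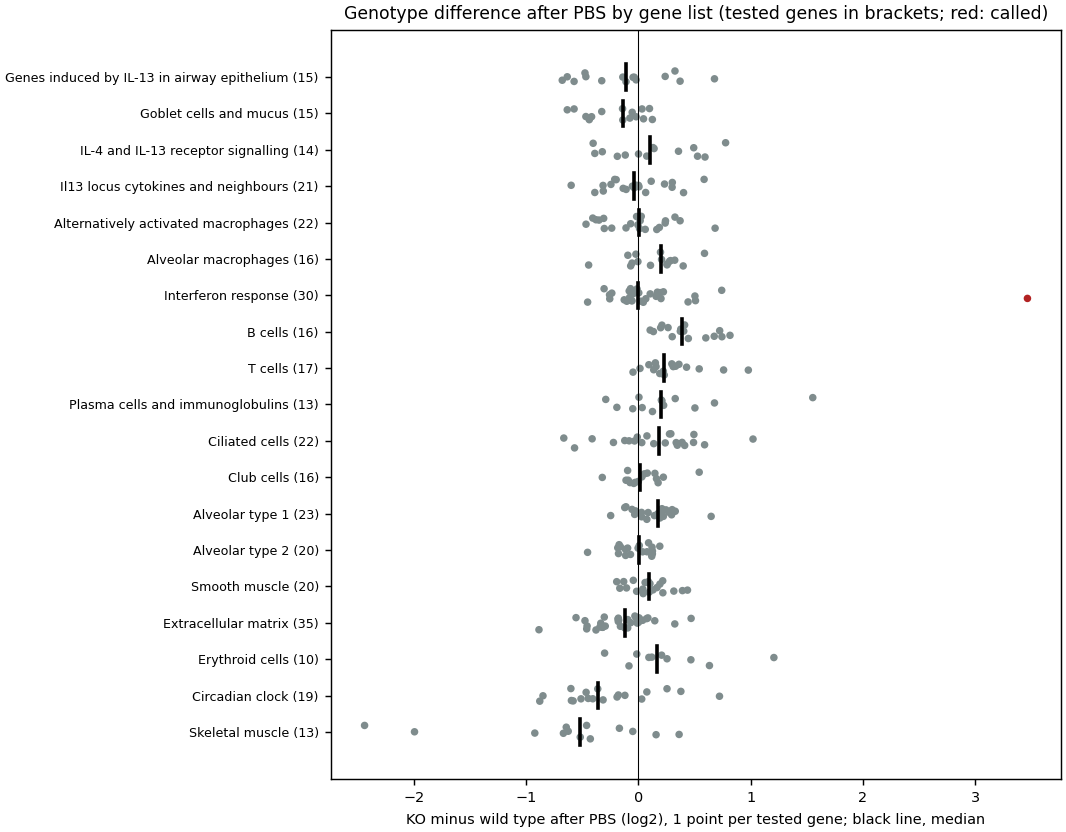
Log2 difference of IL-13 KO minus wild type after PBS for each tested gene of 19 gene lists, with the number of genes in brackets and the median as a black line; points are spread vertically for visibility and red marks a called gene. Xaf1 in the interferon response list is the only red point, the medians of most lists lie near 0, and those of the circadian clock and skeletal muscle lists lie lowest, at -0.36 and -0.52.

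Lymphocyte genes had higher means in KO in most cases, none of them past the threshold. B cell genes had higher means in KO in 16 of 16 tested, against 50.1% of all genes, with a median of 0.39 and 8 at an unadjusted p under 0.05, where 4.21% of all genes were higher in KO at that p. Fcmr, the IgM Fc receptor, had 482, 384 and 541 in wild type and 889, 822 and 663 in KO (0.74 ± 0.17, limma adjusted p = 0.353), and the groups did not overlap. Pou2af1, a B cell transcriptional coactivator, had 123, 68.5 and 72.0 against 176, 115 and 150, and wild-type replicate 1 lay within the KO range. The summed signal of the list was 2401, 4272 and 4559 in wild type and 3521, 5574 and 5743 in KO in rising order, so the groups overlapped. Without wild-type PBS replicate 2, the sample with muscle transcripts, 14 of 16 were higher with a median of 0.32 and 3 at that p, and without KO PBS replicate 1 there were also 3. T cell genes were higher in 16 of 17 with a median of 0.23, of which 4 were at an unadjusted p under 0.05, and 2 without wild-type PBS replicate 3, KO PBS replicate 1 or KO PBS replicate 3. Icos, a costimulatory receptor, had 165, 163 and 152 against 188, 193 and 225 (0.31 ± 0.11, limma adjusted p = 0.64). In whole lung, more cells of a type and more RNA per cell cannot be told apart.

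Antibody and cytotoxic genes were less uniform. Igha, the constant region of immunoglobulin A, had 135, 98.7 and 155 in wild type and 387, 576 and 261 in KO (1.55 ± 0.28, limma adjusted p = 0.135), and after HDM it was called higher in KO (1.66, adjusted p = 0.019). Over the 13 plasma cell and immunoglobulin genes the median was 0.20, and -0.02 without wild-type PBS replicate 2. Gzma, a granzyme of cytotoxic cells, had 320, 269 and 233 against 376, 348 and 543 (0.60 ± 0.17, limma adjusted p = 0.497). Nkg7, a granule protein of the same cells, had 111, 82.3 and 119 against 154, 184 and 148 (0.61 ± 0.18, limma adjusted p = 0.523). Their list had a median of 0.18, and of 0.02 without wild-type PBS replicate 2.

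Extracellular matrix and clock genes had lower means in KO in most cases, none of them past the threshold. Of 35 matrix genes 27 were lower and 8 higher, with a median of -0.12. Fn1, fibronectin, had 2013, 2392 and 2215 in wild type and 1530, 1533 and 1426 in KO (-0.56 ± 0.10, limma adjusted p = 0.157), and Lox, which crosslinks collagen and elastin, had 352, 522 and 520 against 210, 269 and 257 (-0.89 ± 0.21, limma adjusted p = 0.405). Of 19 circadian clock genes 14 were lower and 5 higher, with a median of -0.36 and a range of -0.88 to 0.72. At an unadjusted p under 0.05, 4 were lower, against 3.27% of all genes, and 1 was higher, against 4.21%. Without KO PBS replicate 1 the median was -0.18 and 2 were lower at that p, and without KO PBS replicate 2 there were 7. Nr1d2, a repressor of the clock, had 634.5, 521 and 652 against 204, 370 and 472 (-0.85 ± 0.27, limma adjusted p = 0.553), where KO replicate 1 was the lowest. Wee1, a clock-controlled cell cycle kinase, had 197, 168 and 172 against 51.6, 142 and 110 (-0.88 ± 0.28, limma adjusted p = 0.563). The sources used here do not give the time of day at which lungs were taken.

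Markers of tissue other than lung parenchyma also varied. Erythroid genes had a median of 0.16, and Slc4a1, the red cell anion exchanger, had 72.6, 112 and 93.5 in wild type and 263, 187 and 218 in KO (1.21 ± 0.26, limma adjusted p = 0.293). Their summed signal was 3372 to 4131 in wild type and 4139 to 5032 in KO, without overlap, and its part in the other differences was not tested. Skeletal muscle genes were lower in 11 of 13 with a median of -0.52, which was -0.13 without wild-type PBS replicate 2. Unc45b, described above as a muscle chaperone, had 965 in that sample, between the other wild-type samples. Of the other cell types, alveolar type 1 genes had a median of 0.17, ciliated cell genes 0.19, alveolar type 2 genes 0.00, club cell genes 0.02, endothelial genes -0.01 and fibroblast genes 0.02. Without wild-type PBS replicate 3 the ciliated cell median was 0.00.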

How the data were processed

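The deposited values were linear array intensities, 1 per probe set and array, in a table per array set. Which software produced them is not given in the sources used here. Each array had the same mean after trimming 2% from each end, so the authors had scaled the arrays, and this scaling was kept. The PBS arrays had median intensities of 69.5 to 77.7 (set A) and 83.5 to 91.5 (set B). No detection calls were used, and the number of arrays limits the precision.

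They were analysed as log2(value + pseudocount), using pseudocounts of 7 (set A) and 11 (set B), the rounded 10th percentile of each set. Controls and probe sets whose mean fell below the 30th percentile within their array set were dropped. For the 100 probe sets that both sets carry, only set A was tested. Names came from the platform annotation, in which a probe set had 1 gene (20380 on set A, 14661 on set B), several (691, 245) or none (1555, 7605). Gene identifiers of 20349 and 14484 probe sets with 1 gene were matched to the RefSeq table.

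One limma model (3.58.1, R 4.3.3) with the 4 groups of 12 samples, 8 residual degrees of freedom, a trend of the spread with intensity, and p-values adjusted by Benjamini-Hochberg across the 31496 probe sets tested, gave every adjusted p. It was tested on simulated data. The rule for naming genes took called genes whose groups did not overlap, each by its probe set with the highest mean, the IL-13 pathway genes, and from a list without calls up to 2 members, those with the smallest p. Genes named outside it were chosen after their values were seen. The samples, lists and rules were chosen with earlier results of these data known. Alternatives were other pseudocounts, filters and scalings, a fit per treatment, a fit without the trend, replicate number as a block, and leaving out each sample. The labels gave no lot, so batches were not examined.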

Additional observations from a re-analysis of the deposited data

Results flagged for a closer look

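For some probe sets the genotype difference itself differed between treatments (limma, test of the difference, adjusted over all probe sets). Described here are 4 genes named above and 1 probe set just outside the threshold after PBS. Other genes of the lists also passed. Among them were Chil4 (-4.87, limma adjusted p = 0.0165), Tagln (-1.42, limma adjusted p = 0.0165) and Fcgbp (-1.47, limma adjusted p = 0.0465). Chia1 had a genotype difference of -0.68 after PBS and -2.73 after HDM, so the difference after HDM minus that after PBS was -2.05 (adjusted p = 0.0139 in limma). For Pigr, the epithelial antibody transporter, it was 0.68 after PBS and -1.58 after HDM, a change of -2.26 (limma adjusted p = 0.0165). Its PBS signals were 203, 145 and 171 in wild type and 309, 263 and 265 in KO. For Itgax the change was -0.92 (limma adjusted p = 0.0471), from 0.40 to -0.52, and for Tpm2 it was -2.36 (limma adjusted p = 0.0165), from 0.39 to -1.97. The unnamed probe set 1443451_at had 10.7, 8.36 and 14.4 in wild type and 61.35, 109 and 54.8 in KO after PBS. After HDM it had 102, 87.5 and 109 in wild type and 17.2, 48.8 and 25.9 in KO, a change of -3.39 (limma adjusted p = 0.0139). Its means in wild type after PBS (11.1) and in KO after HDM (30.7) were below the filter level of set B (39.2). It thus entered the test through the groups where it was high, which limits this result. The genotypes were apart in opposite directions after the 2 treatments in 1443451_at, Pigr and Itgax.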

How the results depend on the processing

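The count of 12 called probe sets after PBS became 2 in a fit of the 6 PBS samples alone, and ranged from 6 to 20 when single samples were left out. Other pseudocounts, filters and scalings and a fit without the trend gave 8 to 15. The number of these probe sets called after HDM, 9 here, ranged from 5 to 9 when single samples were left out. In alternatives added after the data were seen, leaving out the 3 samples with skeletal muscle transcripts, which leaves 1 wild-type HDM sample assumed to vary like the others, gave 5 and 2, and leaving out the 2 samples with the lowest actin ratio gave 6 and 5. Each called value kept its direction after PBS in all 23 alternatives or as many as tested it (218 values on the same side of the threshold, 56 no longer past it). After HDM, 3 values not called changed sign: with single samples left out 1450570_a_at ranged from -0.076 (without wild-type HDM replicate 1) to 0.58 and Lyz1 from -0.14 to 0.015 (without KO HDM replicate 2), and without the muscle samples 1450570_a_at was -0.63. On chromosome 11, the count of 2 called genes became 4 called probe sets when each probe set was counted, with both Xaf1 probe sets among them. The causes were not tested. Replicate numbers did not pair the samples (deviations of same-numbered samples correlated at 0.17, 0.08 and 0.00), and a fit with the replicate block called 10 probe sets after PBS and 9 of the 12 after HDM. Signal near the floor limits Il13, Il5 and Il13ra2, and 3 samples a group limit all counts.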

Other observations

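Stress and cell cycle genes had not been described. Of 30 tested immediate early and stress genes 18 were lower and 12 higher in KO after PBS, with a median of -0.08. Dnajb1, a heat shock cochaperone, had signals of 394, 406 and 392.3 in wild type and 304, 282 and 222 in KO (-0.56 ± 0.14, limma adjusted p = 0.428), and Hspa1b, an inducible heat shock protein, had 311, 334 and 360 against 280, 117 and 99.7 (-1.13 ± 0.30, limma adjusted p = 0.483). The groups did not overlap in either gene, and KO replicate 1 of Hspa1b lay near the wild-type samples. Cdk1, the mitotic kinase, had 59.2, 38.3 and 45.4 in wild type and 28.3, 11.8 and 10.8 in KO (-1.25 ± 0.26, limma adjusted p = 0.279), while the 32 cell cycle genes had a median of -0.05. Saa3, an acute phase gene, had 112, 81.9 and 84.3 against 44.6, 55.1 and 65.9 (-0.68 ± 0.17, limma adjusted p = 0.436). Dnaic1, a dynein chain of motile cilia, had 99.5, 88.3 and 46.0 against 178, 186 and 129 (1.02 ± 0.26, limma adjusted p = 0.428). None of these genes was called.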
